A study of Mus musculus with 12 samples.

Results

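A set of 41 mouse genes of the lysosome was followed in cultured microglia: 19 acid hydrolases, 2 activator proteins that present lipids to them, 4 proteins of the lysosomal membrane, 14 subunits of the vacuolar proton pump and 2 of its accessory proteins. They were chosen by symbol, through the GENCODE M21 names of the Ensembl identifiers in the count table, and all 41 were found among its 52636 identifiers. Of the 41, 40 passed the filter on low counts, which left 14687 genes in all. Atp6v0c did not pass.

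Microglia, the resident macrophages of the brain, received full-length neurofilament light chain (FL-NfL, 5 µg), its coiled-coil part (CC-NfL, 5 µg) or vehicle for 24 h, and RNA was sequenced from 4 libraries per group. NfL belongs to the cytoskeleton of axons and leaks out when they are damaged. The comparisons ask how the lysosomal genes stood after each form of NfL against vehicle, and whether the forms differed. All cells were primary microglia of wild-type C57BL/6 mice from brains at postnatal day 1 to 2, shaken off mixed glial cultures and plated at 50000 cells per well in medium with serum and 2.5 ng of CSF1, a growth factor of macrophages. Such cells have left their tissue and grow in serum, which limits them as a model of microglia in the brain. Each of the 4 batches (b1 to b4) held 1 library of each group, so replicate numbers are batch numbers. The labels do not say that batches were separate cultures or litters; the p-values measure only the spread between libraries, which may be technical.

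Lysosomes break down proteins, lipids, glycans and nucleic acids that arrive by phagocytosis, endocytosis or autophagy. Their hydrolases work at acidic pH, which the vacuolar H+-ATPase (V-ATPase) maintains: its V1 sector in the cytosol splits ATP, and its V0 sector in the membrane carries the protons. Many of these genes carry a site in the promoter that the transcription factors Tfeb and Tfe3 bind, and in microglia lysosomes digest myelin, dead cells and protein aggregates.

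The libraries held 20162427 to 31048044 counts. Summed levels of microglial marker genes were 11500 to 13400 CPM (counts scaled by the TMM-adjusted library total) in FL-NfL libraries, 12600 to 14700 in CC-NfL libraries and 12200 to 15500 in vehicle libraries; of 10 tested, 1 was higher and 3 lower with FL-NfL than with vehicle (3 and 3 with the replicate number as a block in the fit). Neuronal markers summed to 13.6 to 31.5 CPM in FL-NfL libraries, 16.4 to 46.8 in CC-NfL libraries and 19.8 to 63 in vehicle libraries; of 8 tested, 2 were lower with FL-NfL than with vehicle (median log2 −1.20), and with the block 1 was higher and 7 lower. Astrocyte markers summed to 23.8 to 37.5 CPM in FL-NfL libraries, 24.1 to 52.3 in CC-NfL libraries and 26 to 57.8 in vehicle libraries; 1 of 9 was lower with FL-NfL (median log2 −0.63), and 7 of 9 with the block. Fibroblast and vessel markers summed to at most 16.8 CPM in any library, with 1 of 7 higher and 0 lower (1 and 2 with the block). Oligodendrocyte markers summed to 241 to 297 CPM over all groups, with 1 of 9 higher and 0 lower (2 and 5 with the block). Genes of border macrophages summed to 4420 to 4880 CPM in FL-NfL libraries, 3740 to 5370 in CC-NfL libraries and 3680 to 5780 in vehicle libraries, although 1 of 7 was higher (Siglec1) and 3 lower (Mrc1, F13a1 and Stab1) with FL-NfL than with vehicle (median log2 −0.56; 2 and 4 with the block). Mitochondrial genes took 0.210% to 0.372% of the counts in FL-NfL libraries, 0.256% to 0.450% in CC-NfL libraries and 0.40% to 0.518% in vehicle libraries. Over all tested genes 24.9% were called with FL-NfL against vehicle (14% higher, 10.9% lower), and 43.8% with the block (21.4% and 22.4%). Without the block the called share was 25% of neuronal, 11.1% of astrocyte, 11.1% of oligodendrocyte and 14.3% of fibroblast and vessel markers. It was 40% of microglial markers and 57.1% of border macrophage genes. The part of these markers and of the mitochondrial share in the lysosomal results was not tested. In such bulk samples, fewer cells of a type and less RNA per cell cannot be told apart.

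In vehicle-treated microglia the lysosomal genes spanned a wide range. Measured per length (RPKM, CPM per kilobase of exon), vehicle libraries averaged 1870 RPKM of Psap, which encodes the precursor of the saposins, and 1150 RPKM of Lamp1, the main glycoprotein of the lysosomal membrane. Hexa, the α subunit of β-hexosaminidase A, followed with 857 RPKM and was the highest hydrolase. Next came Lipa, lysosomal acid lipase, with 260 RPKM and Gusb, β-glucuronidase, with 255 RPKM. At the low end stood Mcoln1, a cation channel of the lysosome, with 6.92 RPKM, Smpd1, acid sphingomyelinase, with 10.7 RPKM and Atp6v1h, the H subunit of V1, with 10.9 RPKM. The median was 64.5 RPKM over the 19 hydrolases, 67.9 RPKM over the 5 tested V0 genes and 30.2 RPKM over the 8 V1 genes. Although pump subunits assemble into 1 enzyme, their transcripts ranged from 10.9 to 186 RPKM.

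**Figure D1:**
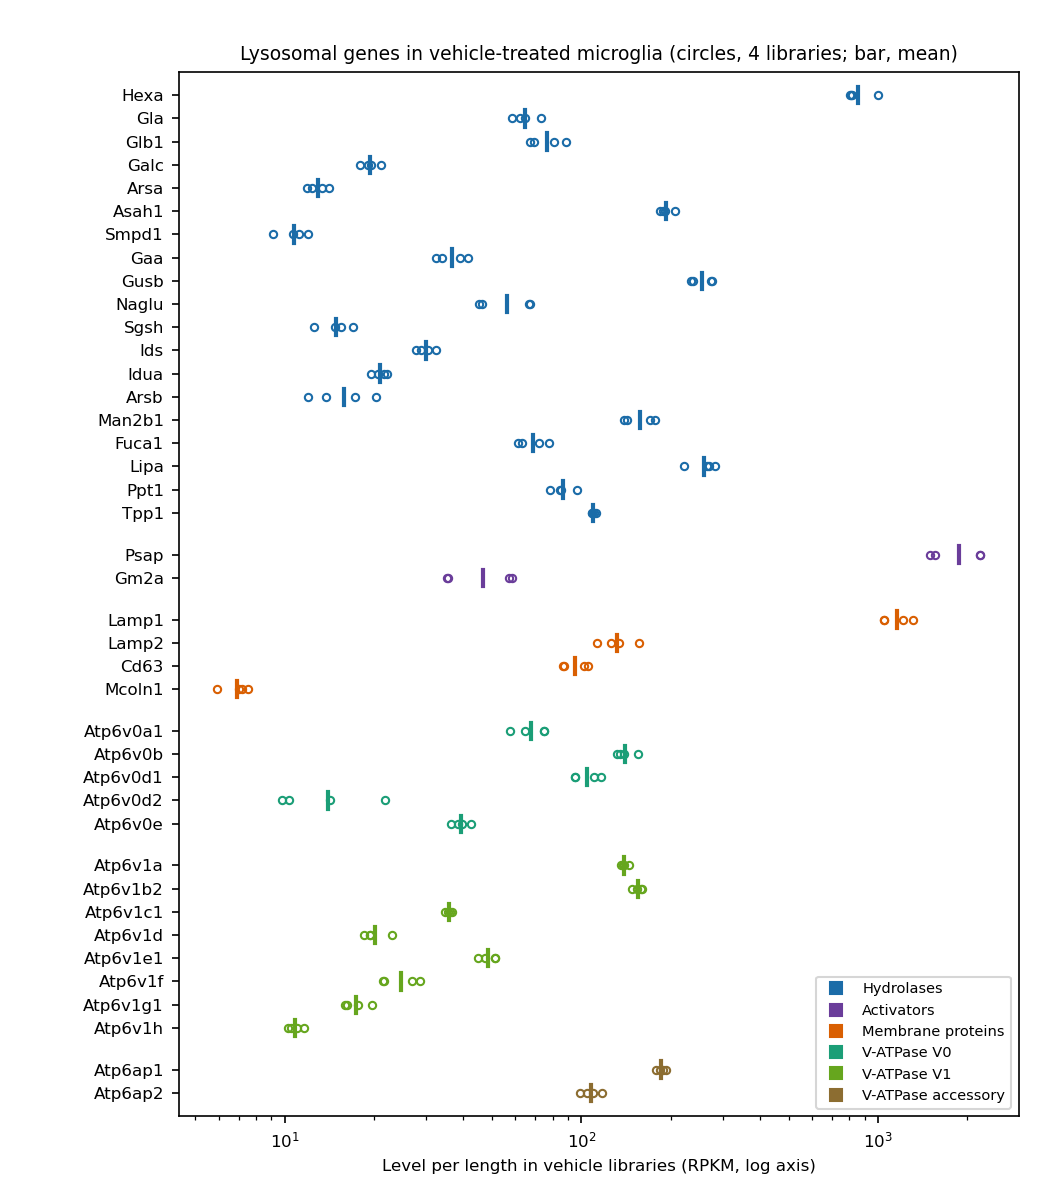
Level per length of the 40 tested lysosomal genes in the 4 vehicle libraries (RPKM, log axis). Circles are libraries, bars their mean, and colours the role groups; Psap (1870 RPKM) and Lamp1 (1150 RPKM) stood highest and Mcoln1 (6.92 RPKM) lowest.

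Atp6v0c, the proteolipid subunit that forms most of the rotor ring of V0, had only 3 to 33 counts in any library. Of its 50-base windows, 12.2% occur elsewhere in the annotated transcripts, in its processed pseudogenes, so its level here is uncertain and it received no test. Members with at least 5% of their windows shared were also Arsb (57.8%, with an overlapping gene on the other strand), Sgsh (20.0%), Atp6v1g1 (19.2%, with pseudogenes), Arsa (17.3%), Atp6v1f (12.6%), Hexa (10.6%), Cd63 (9.10%, with a pseudogene) and Lamp1 (7.11%). The strand setting of the counting is not given in the sources used here, and levels of these genes carry that uncertainty.

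The known binding site of Tfeb and Tfe3 has the core CACGTG, which reads the same on both strands, most often preceded by GT and followed by AC. RefSeq promoters (GRCm38.p6, 250 bases before to 50 after the start) were at hand for 35 of the 41 genes. CACGTG occurred in 12 of these 35 (34.3%), against 8.09% of the promoters of 27025 genes. The longer TCACGTG, searched on both strands, was found in the same 12, against 4.29% of all, and every such match contains the shorter motif. The core with at least 1 flank, GT before or AC after, occurred in 9 of the 35 (25.7%), against 2.55% of all. The core with both flanks, GT before and AC after, occurred in 0 of the 35 and in 0.37% of all. The promoters of 4 genes are printed because they span the range: Lamp1 holds 4 copies, Sgsh and Atp6v0d1 hold 1 each and changed in opposite directions, and Galc, the most reduced hydrolase by p-value, holds none. Capitals mark CACGTG, and the start site is base 251 of each sequence.
Lamp1 (chr8:13158911-13159210, plus strand): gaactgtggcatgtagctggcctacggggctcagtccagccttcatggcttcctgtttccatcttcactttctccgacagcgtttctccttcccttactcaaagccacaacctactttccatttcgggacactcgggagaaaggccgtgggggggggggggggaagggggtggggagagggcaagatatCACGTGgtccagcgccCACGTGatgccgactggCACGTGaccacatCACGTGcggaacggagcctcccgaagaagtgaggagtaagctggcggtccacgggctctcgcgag
Sgsh (chr11:119355461-119355760, minus strand): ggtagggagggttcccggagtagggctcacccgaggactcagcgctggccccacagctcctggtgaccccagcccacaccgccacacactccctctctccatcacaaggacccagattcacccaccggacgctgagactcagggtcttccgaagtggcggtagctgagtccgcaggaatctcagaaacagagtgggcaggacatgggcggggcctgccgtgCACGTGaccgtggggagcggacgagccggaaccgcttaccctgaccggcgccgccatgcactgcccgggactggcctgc
Atp6v0d1 (chr8:105566015-105566314, minus strand): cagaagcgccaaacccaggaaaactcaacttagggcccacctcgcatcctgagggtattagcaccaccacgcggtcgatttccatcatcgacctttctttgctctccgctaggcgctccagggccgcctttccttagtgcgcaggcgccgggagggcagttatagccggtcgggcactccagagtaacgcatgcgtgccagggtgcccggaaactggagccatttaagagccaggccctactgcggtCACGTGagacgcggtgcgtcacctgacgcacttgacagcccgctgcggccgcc
Galc (chr12:98259410-98259709, minus strand): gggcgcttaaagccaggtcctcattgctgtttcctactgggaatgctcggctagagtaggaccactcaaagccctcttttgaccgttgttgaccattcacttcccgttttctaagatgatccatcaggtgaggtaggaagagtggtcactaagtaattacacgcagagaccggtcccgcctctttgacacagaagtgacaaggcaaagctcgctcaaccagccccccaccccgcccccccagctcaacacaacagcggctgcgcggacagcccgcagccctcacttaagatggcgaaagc
The 4 copies in Lamp1 began 61, 45, 28 and 15 bases before the start, the copy in Sgsh 29 bases before it and that in Atp6v0d1 3 bases before it. A match is a description of the letters in this window and does not show binding. Some of the 35 genes had more than 1 promoter, 38 in all. In 29 of the 38 the first bases after the start occurred in a GENCODE M21 transcript of the gene. The promoter of Atp6v0d1 was not among the 29.

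With FL-NfL 7 hydrolases of the set fell and 2 rose, while 4 pump subunits rose by smaller amounts and 1 fell. The difference between these role groups was not tested. It did not extend to the further genes described below, where 8 of 23 hydrolases and helpers rose and 3 fell. Of the 13 further pump genes tested, 1 rose and 2 fell. Of the 40 tested genes, 15 (37.5%) changed against vehicle by edgeR's quasi-likelihood test at an adjusted p under 0.05, 6 higher and 9 lower. Among all 14687 genes 24.9% did, 14% higher and 10.9% lower. Among the 19 hydrolases 2 rose and 7 fell (median log2 fold change −0.12). Among the 15 tested genes of the pump and its accessory proteins 4 rose and 1 fell (median 0.10). Over all tested genes the median was −0.02, as it was over the 40. The FL-NfL and vehicle libraries did not overlap in 15 of the 40 genes (37.5%), against 25.8% of all genes, and 14 of the 15 changed genes were among them. All 15 moved in their direction in each of the 4 batches. They were picked for a gap between these same libraries, which by itself favours groups apart and 1 direction in all batches. The share among all called genes was not taken, so neither count is further support for the calls. With the batch as a block 8 of the 40 genes rose and 12 fell, when 43.8% of all genes were called, 21.4% higher and 22.4% lower. Among the hydrolases 2 then rose and 9 fell, and among the pump genes 6 rose and 2 fell. Upper-quartile scaling set the median of all genes at −0.08, and 45.8% rather than 56.4% of all calls were then higher; removing a trend with GC content and length gave 68.7%, with 5 of the 40 lower. The count of risen members was 3 without vehicle replicate 2 or 4 or without FL-NfL replicate 2 or 3. Among the hydrolases 4 fell without FL-NfL replicate 4 and also after removal of the GC and length trend; 4 rose without FL-NfL replicate 1, 1 without vehicle replicate 4 and 0 without FL-NfL replicate 3. Among the pump genes 1 rose without vehicle replicate 2 or FL-NfL replicate 2, and 2 rose without vehicle replicate 4, without the filter on low counts or in a fit of the 8 libraries alone.

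**Figure D2:**
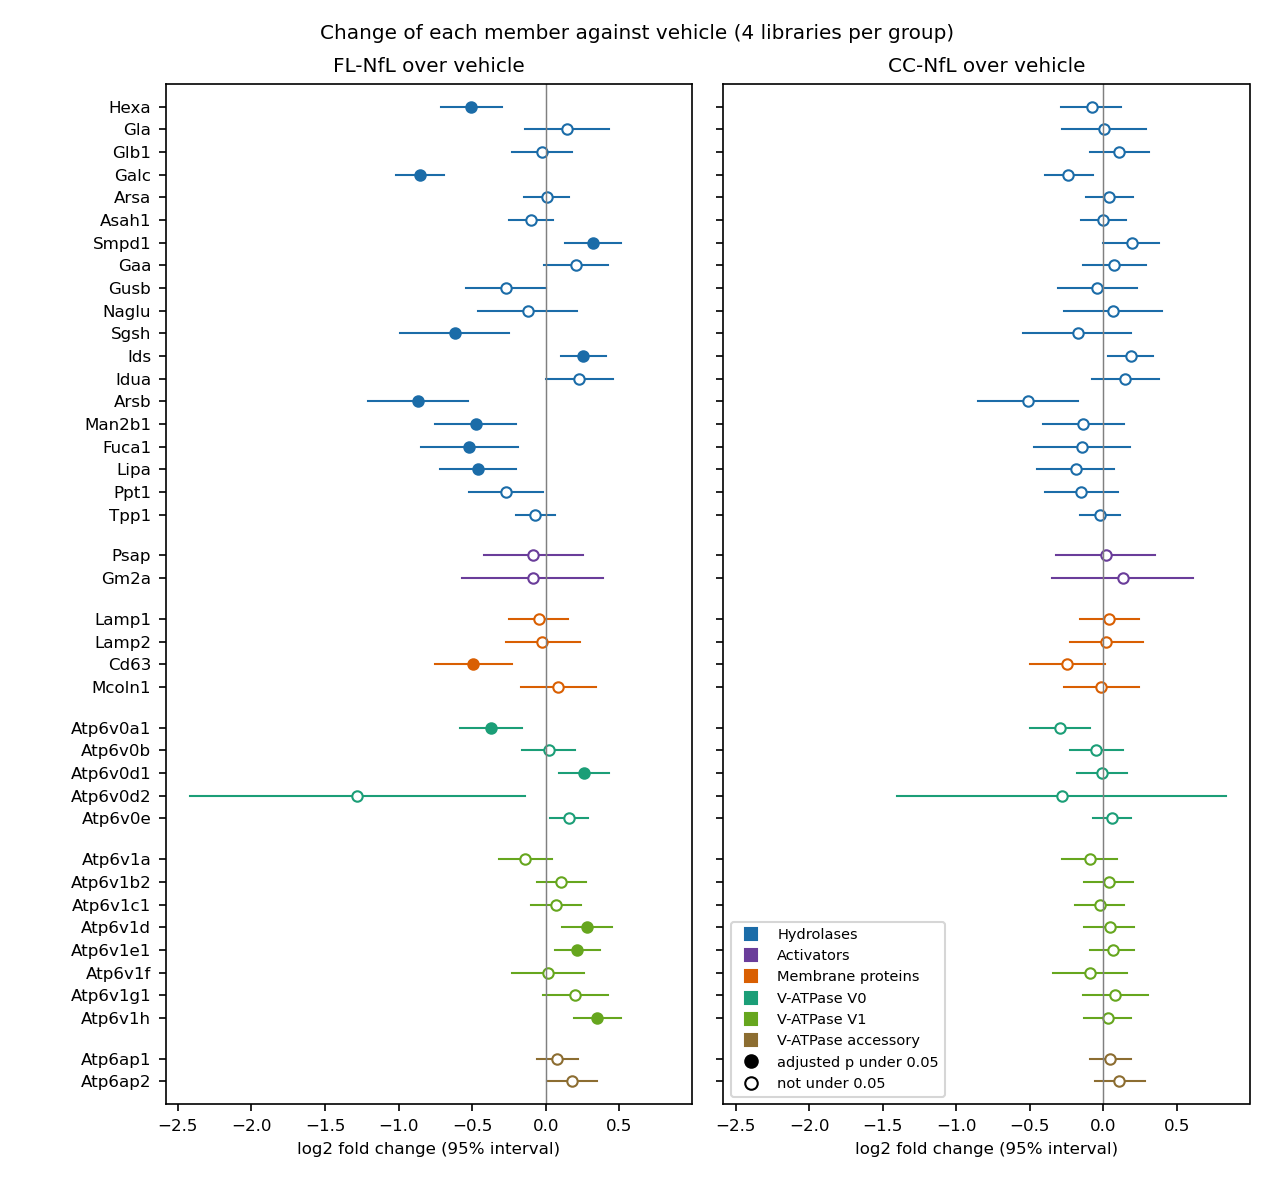
Log2 fold change against vehicle of the 40 tested genes, with FL-NfL on the left and CC-NfL on the right (n = 4 each; lines, 95% intervals; filled, adjusted p under 0.05). With FL-NfL 7 of 19 hydrolases lie below 0 and are filled, and with CC-NfL no gene is filled.

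Galc, the galactosylceramidase that degrades the main glycolipid of myelin, had 171.9, 149.6, 163.0 and 153.3 CPM in FL-NfL libraries of replicates 1 to 4, against 283.7, 291.0, 266.4 and 315.1 CPM in vehicle libraries. Every FL-NfL library was far below every vehicle library, and the fall was of similar size in all batches. Its log2 fold change was −0.86 ± 0.08 (SE; adjusted p = 0.000265 by edgeR), which is 0.552 of the vehicle level, the smallest p among the lysosomal genes. In GRCm38 the gene (ENSMUSG00000021003) spans chr12:98202294-98259459 on the minus strand.

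Hexa (ENSMUSG00000025232, chr9:59539540-59565109, plus strand) had 1297, 1073, 1270 and 1175 CPM in FL-NfL libraries, against 1622, 1609, 1989 and 1625 CPM in vehicle libraries. The groups were apart, with vehicle replicate 3 above the other vehicle libraries. The log2 fold change was −0.51 ± 0.09 (adjusted p = 0.00343). Of the 7 members of the set that act on sphingolipids, Hexa and Galc fell and Smpd1 rose. Gla, Glb1, Arsa and Asah1 (α-galactosidase A, β-galactosidase, arylsulfatase A and acid ceramidase) did not pass, with log2 values from −0.10 to 0.15. Gla was called higher without FL-NfL replicate 1 (log2 0.28, adjusted p = 0.0466).

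Of the 6 members of the set that degrade glycosaminoglycans, the sulfated sugar chains of the cell surface and matrix, 2 fell and 1 rose. Arsb, arylsulfatase B, which acts on dermatan and chondroitin sulfate, had 55.79, 45.33, 57.22 and 51.99 CPM in FL-NfL libraries, against 72.61, 104.2, 83.47 and 123.2 CPM in vehicle libraries. The vehicle libraries were widely spread, yet all lay above all FL-NfL libraries (log2 −0.87 ± 0.16, adjusted p = 0.00307). Sgsh, which removes sulfate from heparan sulfate, had 51.21, 29.01, 53.28 and 38.51 CPM in FL-NfL libraries, against 74.92, 55.67, 68.53 and 65.09 CPM in vehicle libraries. Its groups did not overlap, and replicates 2 and 4 were low with FL-NfL (log2 −0.62 ± 0.17, adjusted p = 0.0214). The call was lost without vehicle replicate 1 (adjusted p = 0.058), without FL-NfL replicate 4 (0.0603) and after removal of a GC and length trend (0.0573).

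Ids, iduronate sulfatase, an early enzyme of the same breakdown route, moved the other way. It had 174.8, 173.8, 192.8 and 185.8 CPM in FL-NfL libraries, against 155.0, 147.4, 165.7 and 141.2 CPM in vehicle libraries. All FL-NfL libraries were higher (log2 0.26 ± 0.07, adjusted p = 0.0225). Without FL-NfL replicate 3 or vehicle replicate 4 the adjusted p of Ids was 0.0583 and 0.0532. Idua, Naglu and Gusb, which cut other links of these chains, had log2 values of 0.23, −0.12 and −0.27 and did not pass. Without FL-NfL replicate 1 Idua was called higher (log2 0.31, adjusted p = 0.0377). Gusb was called with the batch as a block (log2 −0.28, adjusted p = 0.00718), and its libraries ran from 789.5 to 1125 CPM with FL-NfL and from 1062 to 1249 CPM with vehicle.

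Both members of the set that trim the sugars of glycoproteins fell. Further hydrolases outside the set moved in both directions and are described below. Man2b1, lysosomal α-mannosidase, had 1040, 794.5, 979.9 and 819.1 CPM in FL-NfL libraries, against 1365, 1146, 1417 and 1117 CPM in vehicle libraries. Fuca1, α-L-fucosidase, had 176.3, 127.7, 180.0 and 141.7 CPM in FL-NfL libraries, against 235.8, 199.9, 255.7 and 206.9 CPM in vehicle libraries. In both genes the groups were apart and batches 2 and 4 were the lower ones with either treatment. The log2 fold changes were −0.47 ± 0.13 (adjusted p = 0.0181) for Man2b1 and −0.52 ± 0.15 (adjusted p = 0.026) for Fuca1. For Man2b1 the adjusted p was 0.0533 without FL-NfL replicate 2, 0.0538 without FL-NfL replicate 4 and 0.17 after removal of the GC and length trend (log2 −0.31); for Fuca1 it was 0.0597, 0.0716, 0.0559 and 0.0693 without vehicle replicate 1, FL-NfL replicate 2, vehicle replicate 3 or FL-NfL replicate 4.

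Lipa, which frees cholesterol and fatty acids from lipids taken up by the cell, had 1103, 1378, 1262 and 1371 CPM in FL-NfL libraries, against 1798, 1830, 1505 and 1912 CPM in vehicle libraries. Every FL-NfL library was below every vehicle library (log2 −0.46 ± 0.12, adjusted p = 0.0162). Without vehicle replicate 4 the adjusted p was 0.0568, and after removal of a GC and length trend 0.0542. Smpd1, which turns sphingomyelin into ceramide, had 43.02, 44.24, 50.15 and 41.98 CPM in FL-NfL libraries, against 40.02, 30.49, 37.40 and 35.53 CPM in vehicle libraries. The lowest FL-NfL library was just above the highest vehicle library (log2 0.32 ± 0.09, adjusted p = 0.0197; 0.0527 without FL-NfL replicate 3). Gaa, which degrades glycogen, and the protein-modifying or -cutting enzymes Ppt1 and Tpp1 did not pass (log2 0.21, −0.27 and −0.07). After removal of the GC and length trend Gaa was called higher (log2 0.42, adjusted p = 0.0164). Ppt1, a thioesterase, was called lower with the batch as a block (log2 −0.27, adjusted p = 0.0213), with upper-quartile scaling (0.0382) and without FL-NfL replicate 3 (0.0457).

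Psap and Gm2a encode the proteins that lift lipids out of membranes for the hydrolases, and neither passed. Psap had 5144, 4321, 5430 and 4389 CPM in FL-NfL libraries, against 6049, 4279, 6064 and 4095 CPM in vehicle libraries. The groups overlapped, and replicates 1 and 3 were high with either treatment (log2 −0.09 ± 0.15, adjusted p = 0.7). Gm2a had a log2 fold change of −0.09 ± 0.22 (95% interval −0.57 to 0.39). The SE and interval come from the fit without the block and include the spread between batches. With the batch as a block the log2 values were −0.07 for Psap and −0.08 for Gm2a (adjusted p = 0.529 and 0.299 by edgeR).

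Of the 4 membrane proteins, 1 changed. Cd63, a tetraspanin of late endosomes and lysosomes, had 290.4, 253.4, 232.3 and 224.0 CPM in FL-NfL libraries, against 388.1, 320.2, 377.2 and 321.1 CPM in vehicle libraries. The groups were apart (log2 −0.49 ± 0.12, adjusted p = 0.0115). Lamp1 had 3047, 2927, 3102 and 2867 CPM in FL-NfL libraries, against 3245, 2793, 3509 and 2798 CPM in vehicle libraries. The FL-NfL libraries lay within the range of the vehicle libraries (log2 −0.05, 95% interval −0.25 to 0.15, adjusted p = 0.729). Lamp2, its relative that also serves autophagy, and Mcoln1 had log2 values of −0.02 (interval −0.27 to 0.23) and 0.09 (interval −0.17 to 0.34).

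In the V0 sector 1 gene rose and 1 fell among the 5 tested (2 and 2 with the batch as a block). Atp6v0a1, an isoform of the large subunit that lines the proton path, had 342.6, 371.9, 312.3 and 350.4 CPM in FL-NfL libraries, against 376.7, 491.0, 422.5 and 489.4 CPM in vehicle libraries. The groups were just apart, as vehicle replicate 1 was close to FL-NfL replicate 2 (log2 −0.37 ± 0.09, adjusted p = 0.0151). Without vehicle replicate 2 the adjusted p of Atp6v0a1 was 0.0581, without vehicle replicate 4 0.0589 and after removal of a GC and length trend 0.0951 (log2 −0.24). Tcirg1, which encodes the isoform of that subunit known from osteoclasts and lysosomes and is not among the 41, had 305.9, 299.0, 272.8 and 292.1 CPM in FL-NfL libraries, against 339.0, 303.5, 308.4 and 257.4 CPM in vehicle libraries. These groups overlapped (log2 −0.05, adjusted p = 0.727).

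Subunit d, which links the rotor of V0 to V1, has a general isoform, Atp6v0d1, and a macrophage and osteoclast isoform, Atp6v0d2. Atp6v0d1 had 222.4, 236.9, 214.9 and 220.5 CPM in FL-NfL libraries, against 198.1, 170.6, 209.4 and 170.7 CPM in vehicle libraries. All FL-NfL libraries were higher (log2 0.26 ± 0.08, adjusted p = 0.0322). Its call was lost without vehicle replicate 2 (adjusted p = 0.073), vehicle replicate 4 (0.077) or FL-NfL replicate 2 (0.0725), in a fit of the 8 libraries alone (0.0599), without the filter on low counts (0.0504) and after removal of a GC and length trend (log2 0.17, 0.107). Atp6v0d2 had 32.36, 8.439, 12.56 and 8.965 CPM in FL-NfL libraries, against 59.20, 38.62, 26.55 and 28.18 CPM in vehicle libraries. Batch 1 was the highest of its group with each treatment, and within each batch the FL-NfL library was lower. The log2 ratios within batches 1 to 4 were −0.86, −2.13, −1.05 and −1.60. Without the block Atp6v0d2 did not pass (log2 −1.28 ± 0.52, 95% interval −2.42 to −0.14, adjusted p = 0.0923). With the block its adjusted p was 0.000194 (log2 −1.44), without FL-NfL replicate 1 0.017 (log2 −1.93) and without CC-NfL replicate 1 0.0394. Per length, Atp6v0d2 stood at 9.60%, 2.35%, 3.86% and 2.68% of the Atp6v0d1 level in FL-NfL libraries, and at 19.7%, 14.9%, 8.37% and 10.9% in vehicle libraries.

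Of the remaining V0 genes, Atp6v0b, a ring subunit, did not pass (log2 0.02). Atp6v0e, a small membrane subunit, had 159.7 to 165.6 CPM in FL-NfL libraries, against 135.0 to 157.3 CPM in vehicle libraries. These groups did not overlap, but Atp6v0e missed the threshold (log2 0.16 ± 0.06, adjusted p = 0.0707; 0.0457 with the batch as a block, 0.038 with DESeq2 and 0.0413 without vehicle replicate 1).

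In the V1 sector 3 of 8 genes rose and 0 fell. Atp6v1h, a subunit that couples V1 to V0, had 119.8, 147.5, 129.4 and 143.6 CPM in FL-NfL libraries, against 107.6, 102.4, 113.6 and 99.97 CPM in vehicle libraries. Every FL-NfL library was higher (log2 0.35 ± 0.07, adjusted p = 0.0058). After removal of the GC and length trend its log2 fold change was 0.56. Atp6v1d, a part of the central stalk, had 102.7, 121.9, 113.1 and 112.0 CPM in FL-NfL libraries, against 89.20, 85.57, 105.6 and 89.64 CPM in vehicle libraries. Here FL-NfL replicate 1 was below vehicle replicate 3, so the groups overlapped, although each batch had the higher value with FL-NfL (log2 0.28 ± 0.08, adjusted p = 0.0217). Its adjusted p was 0.0561 without vehicle replicate 1, 0.0509 without vehicle replicate 2 and 0.0516 without FL-NfL replicate 2.

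Atp6v1e1, a subunit of the outer stalks, had 217.2, 249.8, 224.6 and 235.0 CPM in FL-NfL libraries, against 210.1, 194.1, 210.8 and 183.8 CPM in vehicle libraries. The groups were apart by a small margin (log2 0.21 ± 0.07, adjusted p = 0.0418). The call on Atp6v1e1 was lost without vehicle replicate 2 (adjusted p = 0.0881) or 4 (0.111), FL-NfL replicate 2 (0.108), 3 (0.0564) or 4 (0.085) or CC-NfL replicate 4 (0.0542), with upper-quartile scaling (0.0912), without the filter (0.0884) and with the 8 libraries alone (0.0739). The catalytic subunit A gene Atp6v1a, the B subunit gene Atp6v1b2, Atp6v1c1, Atp6v1f and Atp6v1g1 did not pass, with log2 values from −0.14 to 0.20. The accessory genes Atp6ap1 and Atp6ap2, whose products help to assemble the pump, had log2 values of 0.08 and 0.18; Atp6ap2 was called with the batch as a block (adjusted p = 0.0467) and without FL-NfL replicate 1 (0.0375).

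**Figure D3:**
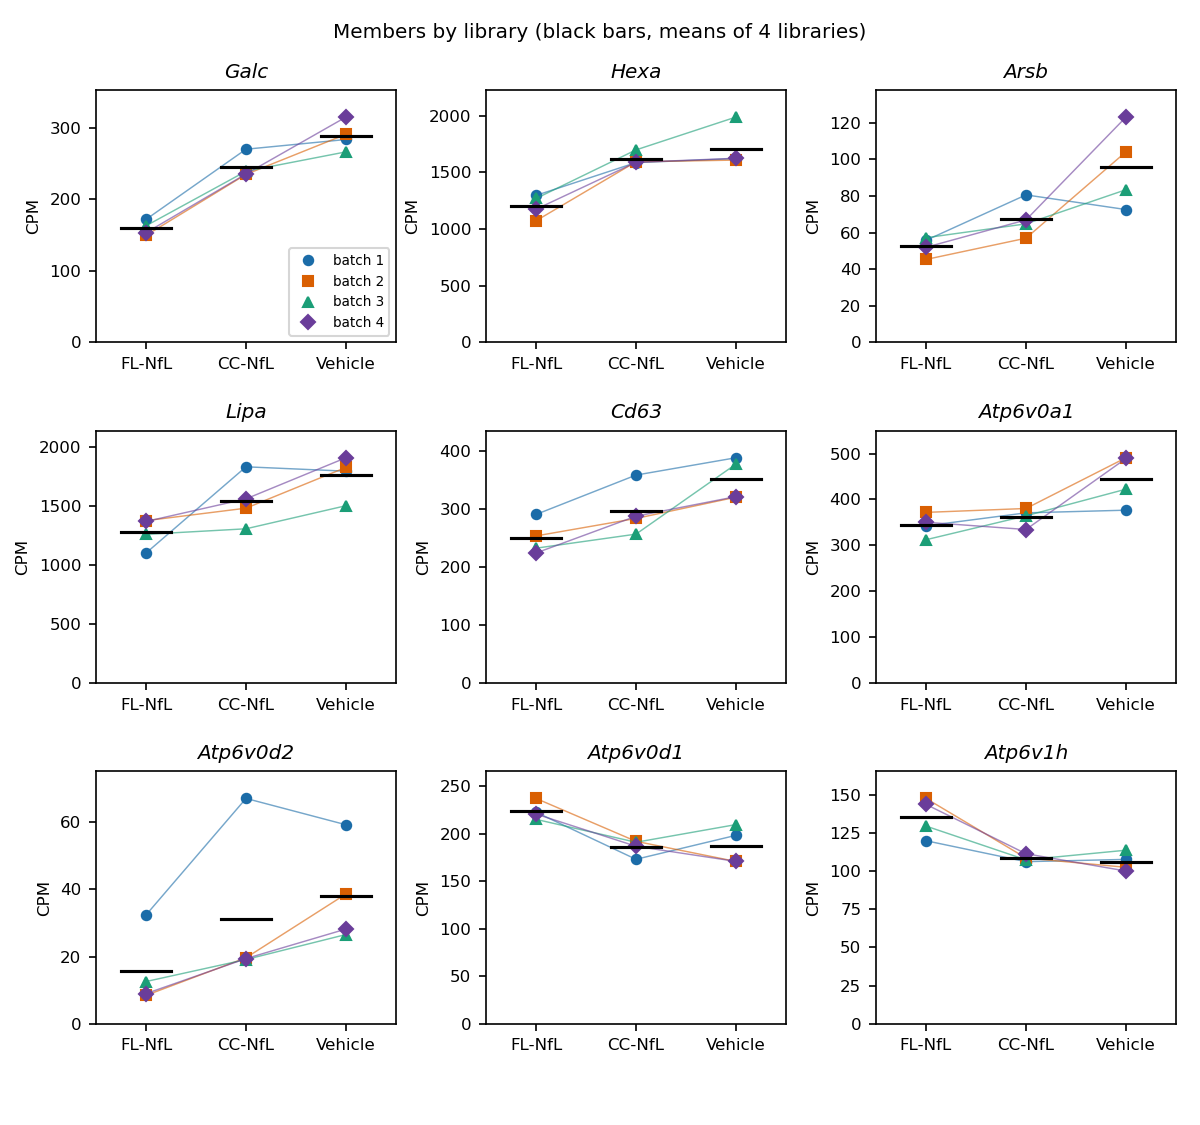
CPM of 9 lysosomal genes in each library (points, joined within a batch; black bars, means of 4 libraries; linear axes from 0). Galc, Hexa, Arsb, Lipa, Cd63 and Atp6v0a1 were lower with FL-NfL than with vehicle, Atp6v0d1 and Atp6v1h higher, and Atp6v0d2 varied most between batches.

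Summed over genes, the hydrolases took 0.678% to 0.745% of the counts in FL-NfL libraries, 0.823% to 0.931% in CC-NfL libraries and 0.918% to 0.965% in vehicle libraries. The pump genes took 0.398% to 0.449% in FL-NfL libraries, 0.403% to 0.427% in CC-NfL libraries and 0.416% to 0.455% in vehicle libraries. FL-NfL and vehicle libraries were apart for the summed hydrolases and overlapped for the summed pump genes. These sums are led by the most abundant genes, and no test was made on them.

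CC-NfL left 0 of the 40 genes called against vehicle by edgeR, where 0% of all 14687 genes were called; DESeq2 also called 0 of the 40, and so did the fit with the batch as a block, in which 0.0136% of all genes were called (0.00681% higher and 0.00681% lower). At an unadjusted p under 0.05 there were 5 of the 40 genes (Galc, Smpd1, Ids, Arsb and Atp6v0a1) and 1082 of all genes. Galc had 270.1, 234.9, 239.3 and 235.5 CPM in CC-NfL libraries, against 283.7, 291.0, 266.4 and 315.1 CPM in vehicle libraries. Each CC-NfL library was below the vehicle library of its batch, but replicate 1 overlapped with the vehicle group (log2 −0.24, 95% interval −0.40 to −0.07, adjusted p = 0.646). Arsb had 80.63, 56.96, 64.80 and 66.96 CPM in CC-NfL libraries, against 72.61, 104.2, 83.47 and 123.2 CPM in vehicle libraries. It was lower in 3 of 4 batches (log2 −0.51, interval −0.85 to −0.17, adjusted p = 0.646). Atp6v0a1 had a log2 value of −0.30 (interval −0.50 to −0.09), Ids 0.19 (interval 0.03 to 0.34) and Smpd1 0.19 (interval 0.00 to 0.38). In the remaining 35 genes the log2 values ran from −0.28 (Atp6v0d2) to 0.15 (Idua), and 0 of the 40 genes had groups that did not overlap, against 2.72% of all genes. Atp6v0d2 had 67.04, 19.63, 19.11 and 19.39 CPM in CC-NfL libraries, against 59.20, 38.62, 26.55 and 28.18 CPM in vehicle libraries. Batch 1 was again far above the others, and the interval of its log2 change was wide (−1.40 to 0.83). The intervals of Lamp1 (−0.16 to 0.24) and Atp6v1h (−0.13 to 0.19) bound any change with CC-NfL, but do not show that there was none.

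FL-NfL and CC-NfL differed directly in 3 of the 40 genes (7.5%), against 2.72% of all genes (1.38% higher and 1.34% lower): Atp6v1h was higher with FL-NfL, and Hexa and Galc were lower. Galc had 171.9, 149.6, 163.0 and 153.3 CPM in FL-NfL libraries, against 270.1, 234.9, 239.3 and 235.5 CPM in CC-NfL libraries, with a log2 fold change of −0.62 ± 0.08 (adjusted p = 0.00488). The groups were far apart and the ratio was alike in all 4 batches, from −0.65 to −0.55. Hexa had 1297, 1073, 1270 and 1175 CPM in FL-NfL libraries, against 1587, 1594, 1699 and 1589 CPM in CC-NfL libraries (log2 −0.43 ± 0.09, adjusted p = 0.039). Atp6v1h had 119.8, 147.5, 129.4 and 143.6 CPM in FL-NfL libraries, against 106.1, 108.5, 107.3 and 111.3 CPM in CC-NfL libraries (log2 0.32 ± 0.07, adjusted p = 0.0423). In both genes the groups were apart.

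The calls on Hexa and Atp6v1h between the forms rested on several libraries. Each was lost without vehicle replicate 2, FL-NfL replicate 2 or 4, or CC-NfL replicate 1, 3 or 4, and that on Atp6v1h also without vehicle replicate 1 or 4; the adjusted p then lay between 0.0516 and 0.119 for Hexa and between 0.0525 and 0.124 for Atp6v1h, at log2 values of −0.37 or further from 0 for Hexa and of 0.28 or more for Atp6v1h. With the batch as a block 3 genes were higher and 8 lower with FL-NfL, when 19.1% of all genes were called, 8.99% higher and 10.1% lower. Those added were Fuca1 (log2 −0.37, adjusted p = 0.00375), Man2b1 (−0.34, 0.00625), Sgsh (−0.47, 0.00634), Gusb (−0.24, 0.0353), Gm2a (−0.23, 0.0223), Atp6v0d2 (−0.98, 0.00582), Atp6v0d1 (0.27, 0.0331; also called by DESeq2, adjusted p = 0.0152) and Atp6v1d (0.24, 0.0284). The 2 comparisons against vehicle share the vehicle libraries, so they are not independent. In 14 of the 15 genes that changed with FL-NfL, the mean of the CC-NfL libraries lay between those of the FL-NfL and vehicle libraries. The exception was Atp6v0d1, with 224 ± 9.36 CPM with FL-NfL, 186 ± 8.73 with CC-NfL and 187 ± 19.7 with vehicle (mean ± SD, n = 4). The 15 genes were picked for a gap between FL-NfL and vehicle in these libraries, which by itself favours a mean in between. The share among all called genes was not taken, so the count does not show a graded effect of CC-NfL. Some means were close to vehicle, as for Atp6v1h (108 CPM with CC-NfL, 106 with vehicle).

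Batch and treatment split the variance of these genes unevenly. Treatment held 95% of the variance of log2 CPM among the 12 libraries for Galc, 83.3% for Hexa and 78.6% for Atp6v1h, where batch held 1.70%, 10.6% and 3.68%. For Lamp2 batch held 92.7% and treatment 1.79%, for Gm2a 90.0% and 8.34%, and for Psap 83.8% and 4.91%. Batch exceeded treatment in 17 of the 40 genes, among them 7 of 19 hydrolases and both activators. Gm2a had 208.1, 139.2, 226.1 and 149.6 CPM in FL-NfL libraries, 243.4, 171.5, 255.5 and 171.7 CPM in CC-NfL libraries and 236.3, 146.3, 241.1 and 145.7 CPM in vehicle libraries. Batches 1 and 3 were the high ones with every treatment.

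**Figure D4:**
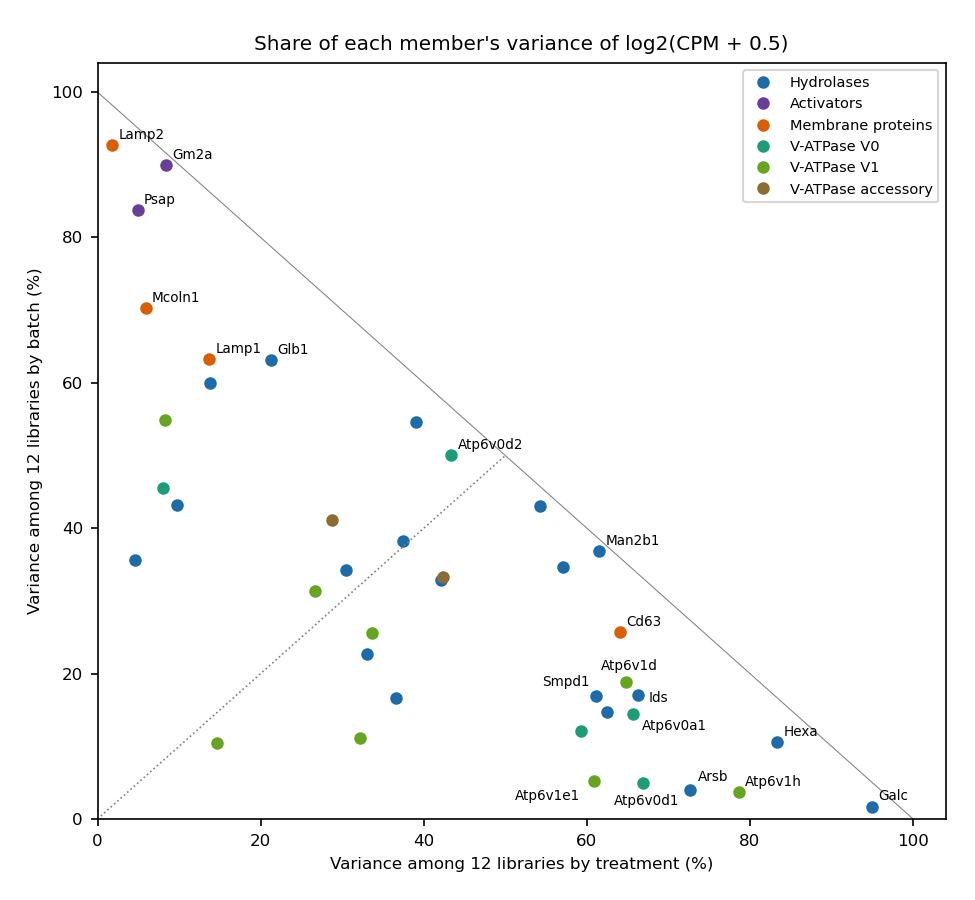
Share of each gene's variance of log2(CPM + 0.5) among 12 libraries that treatment (horizontal axis, %) and batch (vertical axis, %) hold. Points are the 40 tested genes by role; the dotted line marks equal shares. Galc lies at 95% by treatment, and Lamp2 at 92.7% by batch.

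Within batches, the median log2 ratio of the 19 hydrolases to the vehicle library was −0.23, −0.06, −0.20 and −0.12 with FL-NfL in batches 1 to 4. The same median over the 15 pump genes was 0.05, 0.26, 0.01 and 0.14. The hydrolase median was below 0 in each batch. So was the median over all tested genes, which lay closer to 0 (−0.009, −0.012, −0.022 and −0.002). The pump median was above 0 in each batch, but barely so in batch 3, where 8 of the 15 genes were higher, and was largest in batches 2 and 4. Taken alone, the V0 medians in batches 1 to 4 were −0.113, 0.211, −0.158 and 0.138. Those of V1 were 0.095, 0.333, −0.029 and 0.183, so in batch 3 only the accessory genes had a median above 0 (0.093). With CC-NfL the hydrolase medians were −0.03, 0.00, −0.09 and 0.00, and the pump medians −0.02, 0.11, −0.11 and 0.09. The pump median with CC-NfL was above 0 in batches 2 and 4 and below 0 in batches 1 and 3.

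**Figure D5:**
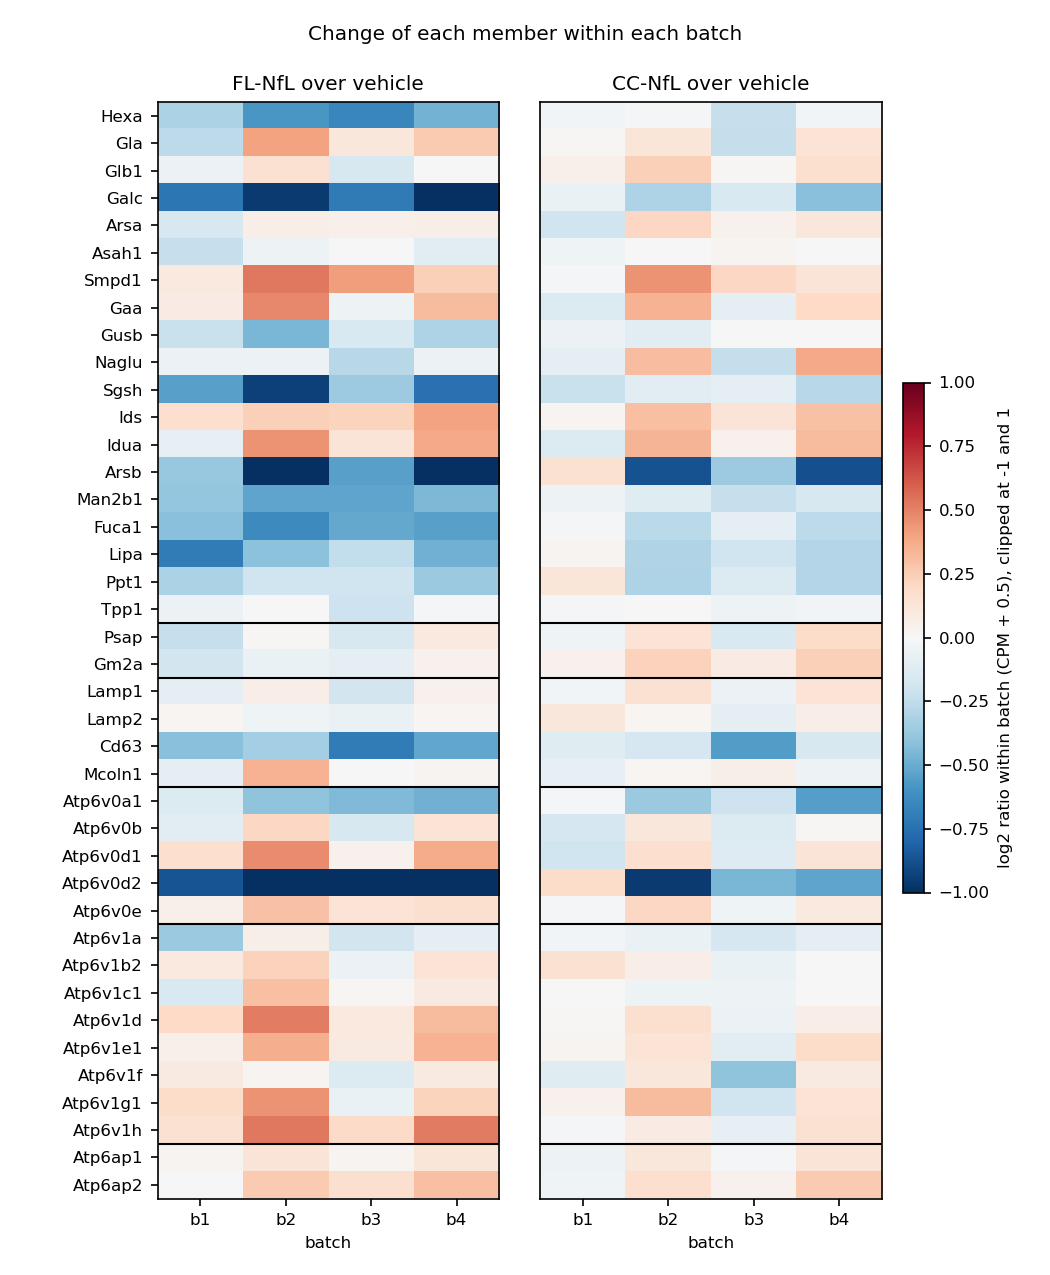
Log2 ratio of each gene to the vehicle library of its batch, from CPM + 0.5 (colour scale clipped at −1 and 1), for FL-NfL on the left and CC-NfL on the right; columns are the 4 batches and lines separate the role groups. Galc is blue in all 4 batches with FL-NfL, and Arsb in 3 of 4 with CC-NfL.

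Promoters with and without CACGTG were set beside these changes. Of the 12 tested genes with the motif, 1 rose (Atp6v0d1), 1 fell (Sgsh) and 10 did not pass with FL-NfL (median log2 0.01). Of the 22 tested genes whose promoter lacks it, 4 rose, 8 fell and 10 did not pass (median −0.09). Those without it that fell were Galc, Hexa, Arsb, Man2b1, Fuca1, Lipa, Cd63 and Atp6v0a1. Those without it that rose were Smpd1, Ids, Atp6v1d and Atp6v1e1. Over all 14687 tested genes 24.9% were called with FL-NfL against vehicle, 14% higher and 10.9% lower. The called share among all genes with the motif was not taken. Whether lysosomal genes with and without the motif differed in their changes was not tested.

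Other genes of the lysosome, taken from lists drawn up with earlier results of these data known, moved in both directions with FL-NfL; over all genes 14% were higher and 10.9% lower, and 21.4% and 22.4% with the block. Of 23 further hydrolases and their helpers 8 rose and 3 fell (47.8% called, median log2 0.17; 9 and 5 with the block). Galns, a sulfatase of keratan sulfate, stood at 102 ± 1.92 CPM with FL-NfL and 72.0 ± 1.68 CPM with vehicle (SD, n = 4; log2 0.50, adjusted p = 0.000593). Aga, which cuts the link between sugar and asparagine, stood at 41.8 ± 1.02 CPM with FL-NfL and 32.0 ± 2.72 CPM with vehicle (0.38, 0.00271), and Plbd2, a phospholipase B-like protein, at 403 ± 86.2 CPM with FL-NfL and 222 ± 27.7 CPM with vehicle (0.86, 0.00376).

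Among 18 further membrane proteins 2 rose and 6 fell (44.4% called, median −0.14; 5 and 8 with the block). Scarb2, the receptor that carries glucocerebrosidase to the lysosome, stood at 271 ± 26.8 CPM with FL-NfL and 399 ± 4.57 CPM with vehicle (log2 −0.56, adjusted p = 0.00123). Ctns, the cystine exporter, stood at 42.0 ± 4.06 CPM with FL-NfL and 56.9 ± 1.23 CPM with vehicle (−0.44, 0.0016), and Slc17a5, the sialic acid exporter, at 82.6 ± 7.55 CPM with FL-NfL and 130 ± 11.4 CPM with vehicle (−0.66, 0.00276). Of 18 further pump genes 13 were tested, and 1 rose (Tmem199, log2 0.40, adjusted p = 0.029) and 2 fell (Wdr7, −0.30, 0.026; Rogdi, −0.56, 0.041), each tied to pump assembly or regulation; these are 23.1% of the tested, near the 24.9% of all genes, and with the block 3 rose and 3 fell.

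Of 9 sorting genes, which bring hydrolases to the lysosome, 2 rose and 2 fell (3 and 2 with the block). M6pr, a mannose phosphate receptor, stood at 492 ± 23.1 CPM with FL-NfL and 358 ± 19.6 CPM with vehicle (log2 0.46, adjusted p = 0.0058). Gga1, an adaptor for such receptors, also rose (0.28, 0.0156). Gnptab, which makes the mannose phosphate tag, stood at 136 ± 11.5 CPM with FL-NfL and 183 ± 5.88 CPM with vehicle (−0.42, 0.014). Of 19 regulators 3 rose and 3 fell (31.6% called, against 24.9% of all genes; 3 and 5 with the block). Rragd, a GTPase that signals nutrients to mTOR, fell (log2 −0.81, adjusted p = 0.0157), while Lamtor5, a part of its scaffold, rose (0.39, 0.0217). Tfe3 stood at 205 ± 7.45 CPM with FL-NfL and 168 ± 14.8 CPM with vehicle (0.28, 0.0259). Its relatives Tfeb (log2 −0.17, adjusted p = 0.265) and Mitf (−0.03, 0.822) did not pass. With CC-NfL edgeR called 0 genes in all 5 lists. At an unadjusted p under 0.05 there were 6 further hydrolases, 2 membrane proteins, 0 pump genes, 1 sorting gene and 2 regulators. Over all 14687 genes 1082 stood under it. Between the forms edgeR called Galns (log2 0.28, adjusted p = 0.0417) and Scarb2 (−0.39, 0.0367), when 2.72% of all genes were called. With the block 3 further hydrolases were higher and 2 lower, and 1 membrane protein was higher and 4 lower. In that fit 1 pump gene and 1 sorting gene were higher, and 2 sorting genes and 1 regulator lower. Of all genes 19.1% were then called, 8.99% higher and 10.1% lower.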

How the data were processed

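The authors deposited 1 table of raw read counts per Ensembl gene, with no normalization, for the 12 libraries. Per the labels' protocols, polyadenylated RNA was sequenced from a strand-specific library kit, in single reads of 50 bases; per the submitters' processing notes, reads were aligned with GSNAP to GRCm38. Not given in the sources used here are the counting tool, the annotation and the strand setting. Members and lists were chosen with earlier results of these data known.

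The counts were filtered with filterByExpr (99.9% of counts kept), scaled by TMM and fitted in 1 quasi-likelihood model of 3 groups (edgeR 4.0.16, R 4.3.3; 9 residual degrees of freedom). Two-sided F tests were adjusted by Benjamini-Hochberg over 14687 genes, with a threshold of 0.05 for a call. CPM are counts scaled by TMM library size, and RPKM divide them by GENCODE M21 exon length. SE and 95% intervals derive from the F statistic of the fit without the block, so they include the spread between batches. Ratios within batches and variance shares used log2(CPM + 0.5).

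The replicate number pairs the samples, since the labels give each number its own batch: after removal of group means, the 12 pairs of equal number had correlations of 0.31 to 0.73, all over 0.1. Values with the block (6 residual degrees of freedom) stand beside the members and list counts that they change. Alternatives were DESeq2 1.42.0, scalings, no filter, 2-group fits, each library left out and, added after seeing the data, a GC and length trend removed through transcripts. The fit was tested on simulated data. Members described in full were the called ones with the smallest p or largest change in their role group, plus Lamp1, Psap, Atp6v0d1, Atp6v0d2 and Tcirg1; the other called members are given by library too. From each further list, the 3 called genes with the smallest p were named, with Tfeb, Tfe3 and Mitf whatever their result.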

Additional observations from a re-analysis of the deposited data

Results flagged for a closer look

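Of 120 groups of 4 libraries (40 genes in 3 groups), 5 held 1 library whose gap to the nearest other library took up most of the range of its group; chance alone flags about 1 in 20 groups. Hexa stood at 1700 CPM in CC-NfL replicate 3, with the others at 1590 CPM, and at 1990 CPM in vehicle replicate 3, with the others at 1610 to 1620 CPM. CC-NfL replicate 1 was the high library in the other 3 cases. Galc stood there at 270 CPM (others 235 to 239 CPM), Atp6v0d2 at 67 CPM (others 19.1 to 19.6 CPM) and Atp6v1a at 826 CPM (others 778 to 781 CPM). No cause was tested.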

How the results depend on the processing

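Of the 15 genes called with FL-NfL against vehicle, 5 (Hexa, Galc, Arsb, Cd63 and Atp6v1h) kept their call under all 19 alternatives, and none of the 15 reversed. With the replicate block 3148 genes were higher and 3284 lower, against 2062 and 1594 without it; 8 members were higher and 12 lower. With GC and length trends removed 5 members were lower. Leaving out 1 library gave 3 to 9 members higher and 6 to 10 lower, and 1392 to 2349 genes higher and 992 to 1735 lower over all; the lower count was 992 without FL-NfL replicate 2, 998 without vehicle replicate 4 and 1013 without FL-NfL replicate 4. For CC-NfL against vehicle, DESeq2 called 25 genes higher and 9 lower and the replicate block 1 and 1; leaving out 1 library gave 0 to 18 higher and 0 to 8 lower (18 and 8 without CC-NfL replicate 1), and no alternative called a member.

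For FL-NfL against CC-NfL, members called higher were 1 in the analysis as reported, 2 with DESeq2, 0 without the filter, 0 with the 8 libraries alone, 3 with the replicate block and 0 to 1 without 1 library. Members called lower were 2 in the analysis as reported, 1 without the filter, 1 with the 8 libraries alone, 8 with the replicate block and 1 to 2 without 1 library. Over all genes, 202 were higher and 197 lower; DESeq2 gave 714 and 583, the replicate block 1321 and 1485, the 8 libraries alone 85 and 83, and removal of the GC and length trend 340 higher. Leaving out 1 library gave 14 to 324 higher and 18 to 277 lower. The share of higher calls was 50.6%, and 70% after removal of the GC and length trend. The causes of these shifts were not tested.

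Values that changed sign were those of genes not called. With DESeq2 size factors the reversed values were for FL-NfL against vehicle Arsa −0.003, and for CC-NfL against vehicle Gla 0.000. With upper-quartile scaling the reversed values were for FL-NfL against vehicle Arsa −0.052, Atp6v0b −0.035, Atp6v1f −0.038, and for CC-NfL against vehicle Gla −0.019, Psap −0.003, Lamp2 −0.010. With GC and length trends removed the reversed values were for FL-NfL against vehicle Tpp1 0.017, Lamp2 0.174, Atp6v0b −0.021, Atp6v1f −0.115, and for CC-NfL against vehicle Gla −0.021, Psap −0.007, Lamp1 −0.002, Mcoln1 0.041, Atp6v1g1 −0.006, and for FL-NfL against CC-NfL Arsa 0.020, Tpp1 0.021, Lamp2 0.108, Atp6v0a1 0.012, Atp6v1a 0.033. For the genes that changed sign without 1 library, the ranges of log2 values over the 12 libraries left out in turn follow. With FL-NfL against vehicle they were Glb1 −0.073 to 0.057, Arsa −0.026 to 0.051, Psap −0.172 to 0.005, Gm2a −0.214 to 0.039, Lamp1 −0.084 to 0.021, Lamp2 −0.093 to 0.069, Mcoln1 −0.026 to 0.179, Atp6v0b −0.025 to 0.082, Atp6v1c1 −0.002 to 0.134, Atp6v1f −0.057 to 0.095. With CC-NfL against vehicle they were Hexa −0.109 to 0.000, Gla −0.040 to 0.072, Arsa −0.006 to 0.086, Asah1 −0.031 to 0.035, Gusb −0.093 to 0.003, Naglu −0.027 to 0.159, Psap −0.073 to 0.112, Lamp1 −0.004 to 0.109, Lamp2 −0.051 to 0.111, Mcoln1 −0.083 to 0.033, Atp6v0b −0.090 to 0.003, Atp6v0d1 −0.055 to 0.047, Atp6v0d2 −0.983 to 0.009. With FL-NfL against CC-NfL they were Arsa −0.065 to 0.014, Lamp2 −0.112 to 0.023, Mcoln1 −0.006 to 0.193, Atp6v1a −0.102 to 0.031. In simulated counts for FL-NfL against vehicle (14687 genes), 100 genes were changed by 0.4 on the log2 scale and 100 by 1. The test recovered 18% and 94% of them. Far fewer genes were changed there than were called in the data, which makes the adjustment for multiple testing stricter. These shares therefore do not tell how often changes in the pump genes were missed. The planned correction with GC content from a genome was not run, as no genome was used here.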
